A study of Homo sapiens with 4 samples.

Results

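The genes described here are 42 genes of mitosis: cyclins, mitotic kinases, spindle and kinetochore proteins, checkpoint proteins and the factors that end mitosis. They were taken by gene symbol from a Human Genome U133 Plus 2.0 array study of T84, an established human line of colorectal carcinoma whose cells form an epithelial sheet. The array measured the 42 genes with 85 probe sets, of which 75 passed the filter on low signal and 10 did not. Each of the 42 passed it on its mean over all arrays, among 12264 expressed genes, and 41 of them reached the 75th percentile on every array, so no gene entered through a group in which it was high.

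T84 cells on transwell filters (24 mm wide, 0.4 µm pores) received synthetic RNA, 15 pmol of oligonucleotide in each group, and total RNA was taken after 5 or 7 days. The 4 groups had 1 array each. The controls were given a short RNA chosen to resemble human microRNAs (miRNAs) as little as possible, and were collected on day 5 and on day 7. A further group received miR-338-3p and miR-451, and the last received these with miR-210 and miR-33a, both collected on day 5. A miRNA is a short RNA that lowers the output of messenger RNAs that pair with its seed. No replicate exists for any group, so differences below have no replicate check and no test, and they describe these 4 cultures of a single cell line. Expression was that of a whole culture, in which fewer dividing cells and less RNA per dividing cell cannot be told apart.

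Mitosis is driven by CDK1 bound to cyclins A and B, which CDC25 phosphatases switch on and which the anaphase-promoting complex ends by destroying the cyclins and securin. The messenger RNAs of most of these proteins build up in G2 and fall in G1 and in resting cells. That rhythm is written mainly in their promoters. CCAAT boxes, which bind the factor NF-Y, lie a short distance before a cell cycle homology region (CHR), which binds the MuvB core. With p130 or p107 and E2F4 (the DREAM complex) the MuvB core holds these genes down outside the cycle, and with B-MYB and FOXM1 it turns them on. Epithelial cells on filters slow their division as the sheet closes and matures, and Ki-67, the product of MKI67, is the usual stain for cells in cycle.

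The RefSeq tables (GRCh38.p14) held the mature forms of 3 of the transfected miRNAs, printed so that the seed is seen, with bases 2 to 8 in capitals. The labels do not name the arm of miR-210 and miR-33a, and the guide arm of each is shown. No pair of the 3 shared a seed.
hsa-miR-338-3p: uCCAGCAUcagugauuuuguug
hsa-miR-210-3p: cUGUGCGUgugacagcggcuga
hsa-miR-33a-5p: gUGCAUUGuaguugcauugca

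The same tables held promoters of 35 of the 42 genes, from 250 bases before to 50 after the annotated start. Letters were searched on both strands as CCAAT (the CCAAT box), TTTGAA (the CHR) and TTCGAA (a CHR variant). CCAAT was found in 26 of 35 (74.3%), against 35.7% of all 27305 promoters of that length. TTTGAA was found in 24 of 35 (68.6%), against 15.4% of all promoters and 10.3% of the 9958 promoters of genes expressed here. Both were found in 19 of 35 (54.3%), against 6.08%, and none of the 3 in 4 (CDC25B, CDC25C, CENPE and KIF2C), or 11.4% against 54.3%. TTCGAA was found in 2 of 35 (5.71%, BUB1 and NDC80), against 1.45%. The 53 CCAAT matches had a median position of −71 and the 30 TTTGAA matches one of −27, counted from the start. A match is a run of letters, not proof that a factor binds there. The 7 promoters below are shown because their genes are the usual marks of the programme. By the brightest probe set of each, the genes also differ in how far they moved, CDC20 most and MKI67 little. Each line gives the 120 bases before the start, read 5′ to 3′ along the gene, with matches in capitals; ATTGG and TTCAAA are the same letters on the opposite strand, and in MKI67 a TTTGAA and an ATTGG overlap in a single run of capitals.
CCNB1 promoter, chr5:69167030-69167149, plus strand: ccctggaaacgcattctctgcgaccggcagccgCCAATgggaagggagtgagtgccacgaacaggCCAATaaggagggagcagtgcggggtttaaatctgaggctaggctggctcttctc
CCNB2 promoter, chr15:59105026-59105145, plus strand: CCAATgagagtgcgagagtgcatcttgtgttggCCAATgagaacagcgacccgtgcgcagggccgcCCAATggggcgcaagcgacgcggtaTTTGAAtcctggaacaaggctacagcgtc
PLK1 promoter, chr16:23678769-23678888, plus strand: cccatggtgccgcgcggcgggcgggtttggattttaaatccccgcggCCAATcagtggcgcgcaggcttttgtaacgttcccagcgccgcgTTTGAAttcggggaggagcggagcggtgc
CDC20 promoter, chr1:43358861-43358980, plus strand: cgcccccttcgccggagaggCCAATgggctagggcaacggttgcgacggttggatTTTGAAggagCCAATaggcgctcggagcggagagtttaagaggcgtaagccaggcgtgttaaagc
ESPL1 promoter, chr12:53268179-53268298, plus strand: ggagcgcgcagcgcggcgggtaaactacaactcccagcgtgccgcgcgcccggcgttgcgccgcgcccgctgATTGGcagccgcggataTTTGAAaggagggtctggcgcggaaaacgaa
KIF11 promoter, chr10:92593010-92593129, plus strand: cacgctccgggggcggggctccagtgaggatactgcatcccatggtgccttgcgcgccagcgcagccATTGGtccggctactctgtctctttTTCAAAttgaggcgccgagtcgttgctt
MKI67 promoter, chr10:128126424-128126543, minus strand: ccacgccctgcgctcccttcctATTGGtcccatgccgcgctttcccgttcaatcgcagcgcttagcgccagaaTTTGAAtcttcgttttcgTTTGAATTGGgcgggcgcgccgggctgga

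CCNB2, PLK1, CDC20 and ESPL1 showed the same layout, CCAAT letters (on the opposite strand in ESPL1) followed by TTTGAA nearer the start, although in CDC20 a further CCAAT lay downstream of it. CCNB1 had a pair of CCAAT boxes and no match to TTTGAA or TTCGAA in its window. Other letters that might serve as a CHR were not searched. In KIF11 and MKI67 letters of both kinds occurred on the opposite strand or overlapped.

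**Figure D1:**
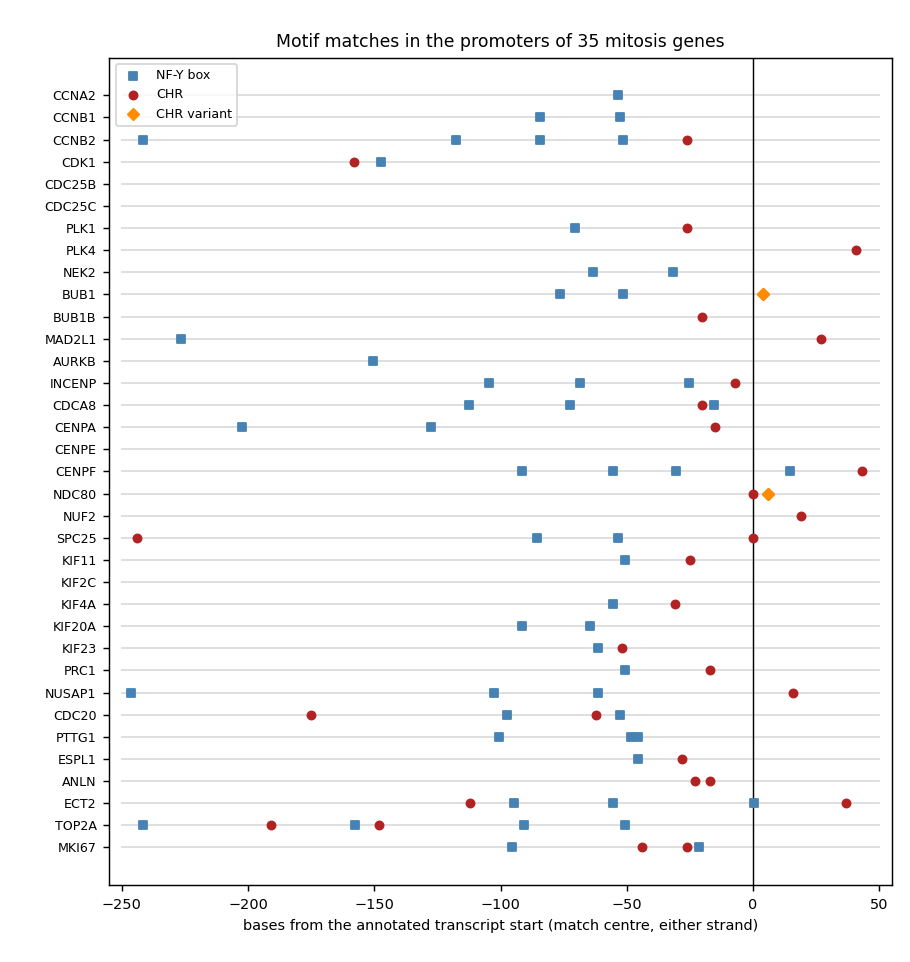
Positions of motif letters in the promoters of 35 mitosis genes, in bases from the annotated transcript start (x axis), with 1 line per gene. Squares are CCAAT boxes, circles the CHR and diamonds its variant, on either strand; squares gather upstream (median −71) and circles close to the start (median −27).

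The arrays fell into a bright and a dim pair before any gene was compared. The trimmed mean of the deposited signals was 147 and 150 on the miRNA arrays and 76.6 and 74.3 on the controls, so brightness coincides with miRNA treatment and the effects of the 2 cannot be told apart. All signals below were scaled to a trimmed mean of 500 per array, and differences are of log2(scaled signal + 32). After scaling, the median of all expressed genes was still −0.15 to −0.16 in each miRNA array minus control comparison, and −0.01 and 0.00 between arrays of like brightness. Comparisons with 1 control share that array, and so are not independent of each other. The ratio of 3′ to 5′ signal of ACTB was 1.97 to 2.33 and that of GAPDH 0.951 to 1.02. All 10 epithelial markers (among them KRT20, VIL1 and CEACAM5) were expressed, with a summed signal of 174857 to 227985, and 3 of 10 markers of fibroblasts, leukocytes and endothelium were (COL1A1, COL1A2 and PECAM1). The 10 markers of other cells summed to 677 to 890 per array, and their highest signal was 309 (COL1A1, day 5 control). The highest deposited signal was 17832 to 18749 on each array, far above that of any mitosis gene (5039, CDK1 on the 4-miRNA array).

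Across the 4 arrays the highest signal of a mitosis gene was 1.11 to 3.68 times the lowest, with a median of 1.55, and 34 of 42 genes kept within 2-fold, close to the other bright genes: of the 6896 genes that reached the 75th percentile on every array, 83.8% kept within 2-fold, with a median of 1.53. The day 5 control was the highest array for 22 of 42 genes (36.7% of all expressed genes) and the 2-miRNA array the lowest for 21 (30.3%), and 17 had both (15.7%). The day 7 control was the highest array for only 2 of 42 genes, CDC25C and KIF20A, against 28.1% of all expressed genes. The 4-miRNA array was the lowest for 3 of 42, CCNB2, CENPE and KIF4A, against 27.2% of all expressed genes.

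**Figure D2:**
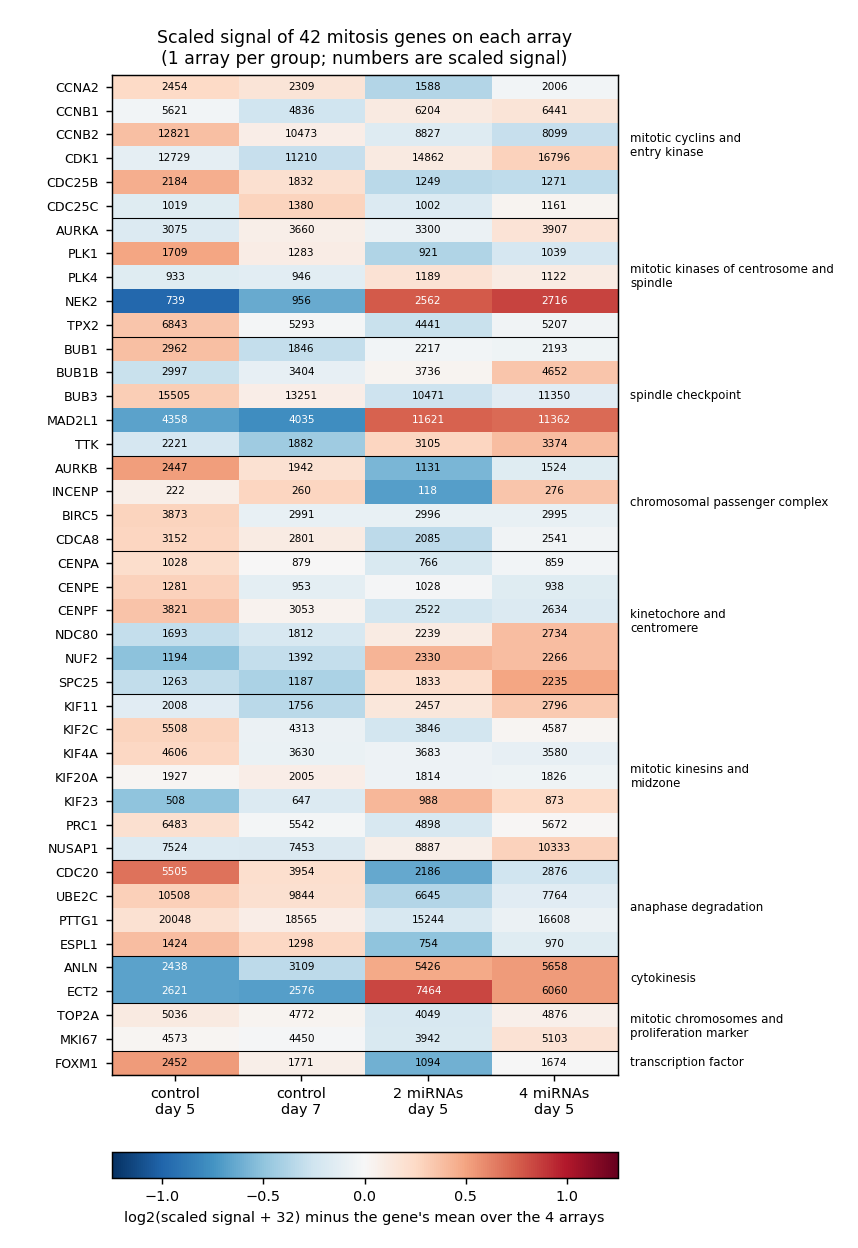
Scaled signal of each of the 42 genes (rows, by role) on the 4 arrays (columns); the number in a cell is the scaled signal and the colour is log2(scaled signal + 32) minus the gene's mean over the arrays. NEK2, MAD2L1, ANLN and ECT2 are high on both miRNA arrays, and CDC20, AURKB, ESPL1 and FOXM1 are high on the day 5 control and low on the 2-miRNA array.

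The comparison of control cells on day 7 with those on day 5 shows what 2 more days on the filter went with, between arrays of like brightness. Mitosis genes were a little lower on day 7: 11 of 42 were above 0, against 49.3% of all expressed genes, and their median difference was −0.15 against −0.01. None was higher or lower by 2-fold or more, where 3.35% of all genes were higher and 2.41% lower. BUB1, a kinase of the spindle checkpoint, had the lowest difference at −0.67, from 2962 to 1846, and its other expressed probe set was lower as well. CDC20, the activator of the anaphase-promoting complex, read 5505 on day 5 and 3954 on day 7, a difference of −0.47. FOXM1, the transcription factor, followed at −0.46, from 2452 to 1771. The centromere motor CENPE was at −0.42 and the mitotic kinase PLK1 at −0.40. All 4 genes of anaphase degradation (CDC20, UBE2C, PTTG1 and ESPL1) were below 0, as were 5 of 6 cyclins and entry genes, 4 of 5 checkpoint genes and 3 of 4 of the chromosomal passenger complex. Among the kinases of the centrosome and spindle 3 of 5 were above 0. Of all genes above 0, CDC25C (0.43), NEK2 (0.36), ANLN (0.35), KIF23 (0.33), AURKA (0.25) and NUF2 (0.22) had the largest differences. The other expressed probe set of CDC25C was at −0.16, and those of AURKA at −0.12 and −0.38. Those of NEK2, ANLN and KIF23 were above 0. By their brightest probe sets MKI67 was nearly level at 4573 and 4450, a difference of −0.04, and TOP2A, the chromosome topoisomerase, at 5036 and 4772. The other expressed probe sets of MKI67 were at −0.51 (from 931 to 647), −0.10 and 0.03. Over the 75 expressed probe sets, 23 were above 0, against 49.96% of all expressed probe sets.

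The comparison of the 4-miRNA with the 2-miRNA array shows what went with adding miR-210 and miR-33a, again between arrays of like brightness. Both groups received the same stated amount of oligonucleotide, and the labels do not say whether it was for each miRNA or for the mix. If it was for the mix, the 4-miRNA culture also received less of the miRNAs common to both groups. Added miRNAs and a lower dose of the others could not then be told apart. Mitosis genes were a little higher with 4 miRNAs: 32 of 42 were above 0, against 50.8% of all expressed genes, and the median was 0.17 against 0.00. INCENP, the scaffold of the chromosomal passenger complex, was the only gene past 2-fold (1.04, from 118 to 276), where 1.04% of all genes were higher by that much and 1.33% lower. INCENP had 1 probe set, of low signal, and with a pseudocount of 100 its difference was 0.79. FOXM1 followed at 0.60, from 1094 to 1674. AURKB, the kinase of the passenger complex, read 1131 and 1524 (0.42), although its dim other probe set differed the other way, 86.1 against 24.9. CDC20 read 2186 and 2876 (0.39), and MKI67 3942 and 5103 (0.37) with the same sign in all 4 of its probe sets. All 4 anaphase genes were above 0, and so were 5 of 6 cyclins and entry genes. CCNA2 (cyclin A2) read 1588 and 2006, but its other probe set read 2662 and 2572 (−0.05). Probe sets of CDK1 (−0.54 to 0.28) and CDC25C (−0.17 to 0.21) also lay on both sides of 0. ECT2, the exchange factor that starts the cleavage furrow, was the lowest at −0.30, from 7464 to 6060, and KIF23 was at −0.17. Over 75 probe sets, 50 were above 0, against 48.4% of all expressed probe sets.

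**Figure D3:**
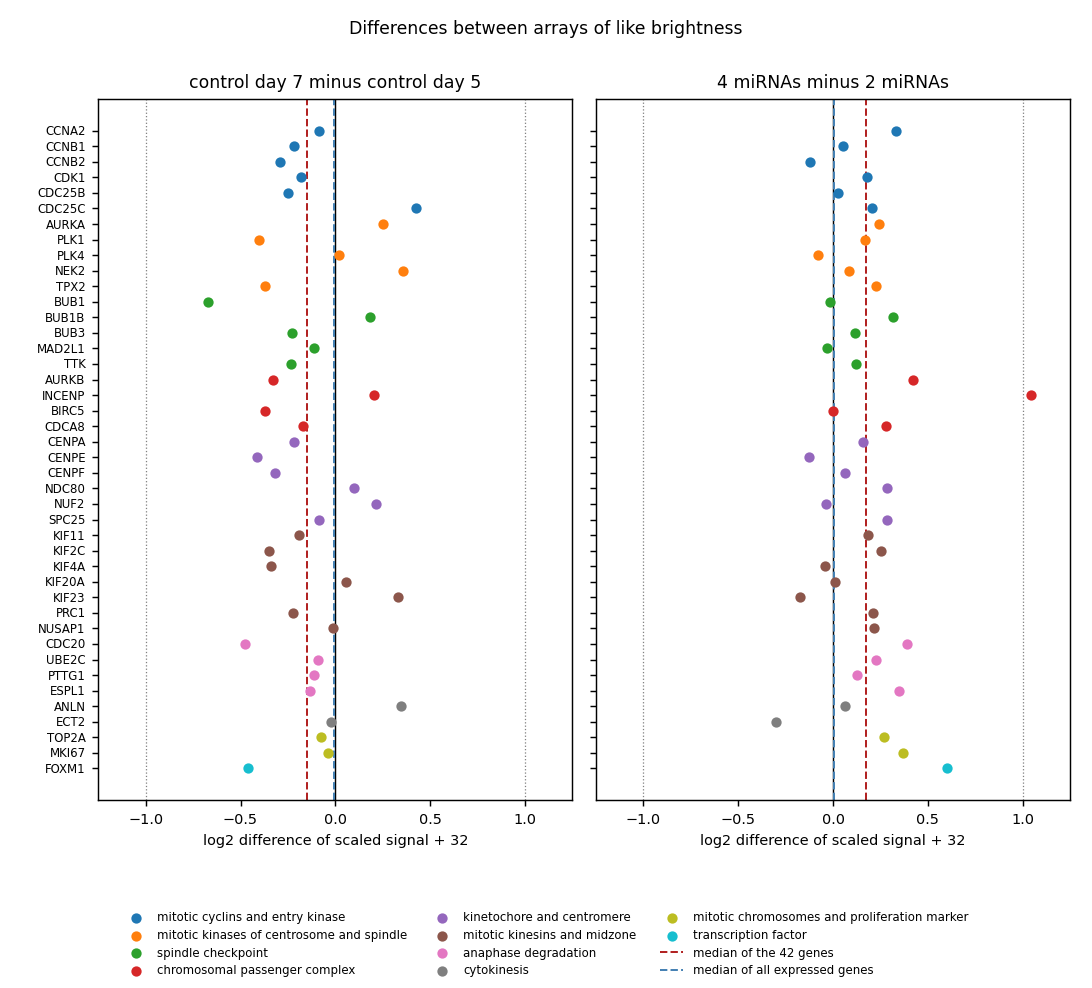
Log2 difference of each of the 42 genes (rows, coloured by role) between the controls (left, day 7 minus day 5) and between the miRNA arrays (right, 4 minus 2 miRNAs); dotted lines mark 2-fold. Most points lie left of 0 in the left panel (11 of 42 above 0, median −0.15) and right of it in the right panel (32 of 42 above 0, median 0.17).

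Between the miRNA arrays and the controls the mitosis genes split. On 15 genes both miRNA arrays were above both controls, against 22.8% of all expressed genes; on 16 both were below, against 41.0%; on the other 11 the groups overlapped. With 2 miRNAs against the day 5 control, 16 of 42 were above 0 (40.6% of all genes), 4 were higher by 2-fold or more (8.11%) and 3 lower (6.37%), with a median of −0.32. With 4 miRNAs, 19 of 42 were above 0 (41.0%), 4 were higher (8.03%) and 0 lower (6.70%), with a median of −0.13. Against the day 7 control, 19 of 42 were above 0 with 2 miRNAs (38.9%) and 23 with 4 (39.1%). There 3 were higher by 2-fold in each case (6.19% and 5.63%) and 0 lower (4.03% and 4.15%), with medians of −0.16 and 0.03. Centring each difference on a running median of genes of like signal gave 29 of 42 above 0 for 4 miRNAs against day 7. Such centring brings the median of all genes to about 0, so the 39.1% is not the share to set beside that count. For 2 miRNAs against day 5 it gave 6 genes higher and 2 lower by 2-fold, whereas the median over the probe sets of a gene gave 1 higher and 4 lower. For 4 miRNAs that median gave 2 higher and 1 lower. The shares of all genes past 2-fold under these alternatives were not counted. The balance of genes past 2-fold in each direction thus depended on the processing. NEK2, MAD2L1 and ECT2 were above both controls by 2-fold on both miRNA arrays, as were 3.12% of all expressed genes.

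Among the cyclins and entry genes, the B-type cyclins went apart. CCNB1 (cyclin B1) read 6204 and 6441 with 2 and 4 miRNAs and 5621 and 4836 in the day 5 and day 7 controls, and its other probe set also read higher with miRNAs. CCNB2 (cyclin B2) read 8827 and 8099 with miRNAs and 12821 and 10473 in the controls. Both miRNA arrays were thus above both controls for cyclin B1 and below them for cyclin B2, by less than 2-fold. CDK1, their kinase, read 14862 and 16796 with miRNAs and 12729 and 11210 in the controls, but 2 of its other probe sets read lower with miRNAs (7883 against 5193 in the day 5 control and 2-miRNA array for the brighter of them). CCNA2 read 1588 and 2006 with miRNAs and 2454 and 2309 in the controls, whereas its other probe set read 2662 and 2572 against 1253 and 1251. The direction of CDK1 and of CCNA2 therefore depended on the probe set. CDC25B was lower with miRNAs (−0.79 and −0.77 against day 5).

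Of the kinases of the centrosome and spindle, NEK2, which helps the centrosomes part, had the largest difference of all 42 genes. It read 2562 and 2716 with 2 and 4 miRNAs, and 739 and 956 in the day 5 and day 7 controls. The difference from day 5 was 1.75 and 1.83, so that miRNA arrays stood about 3.37-fold and 3.56-fold higher on the scale of signal plus 32. Its other probe set moved the same way by far less, 1268 and 1417 against 1098 and 1165. PLK1, which acts from entry to exit, read 921 and 1039 with miRNAs and 1709 and 1283 in the controls, a difference of −0.87 and −0.70 from day 5. AURKA, the centrosome kinase, read 3300 and 3907 with miRNAs and 3075 and 3660 in the controls, and these ranges overlapped. Its other probe sets disagreed. The brighter read 2430 and 2943 with miRNAs against 3871 and 3568, below both controls. The dim one read 108 and 152 against 69.1 and 45.5, above both.

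The spindle checkpoint holds anaphase until every chromosome is attached, and its genes went both ways by their brightest probe sets. MAD2L1, which binds CDC20 in the checkpoint complex, read 11621 and 11362 with miRNAs against 4358 and 4035, a difference from day 5 of 1.41 and 1.38. Another MAD2L1 probe set read 4609 and 4356 with miRNAs against 5947 and 4535, lower than on day 5 and around the day 7 value. BUB1B read 3736 and 4652 with miRNAs and 2997 and 3404 in the controls, and TTK was also above both controls. BUB3 was below them by its brightest probe set, 10471 and 11350 against 15505 and 13251, but 2 of its other 3 probe sets were above both, the brighter at 10647 and 11100 against 8959 and 7946. BUB1 read 2217 and 2193 with miRNAs, between 2962 on day 5 and 1846 on day 7. With the median over probe sets, 4 and 3 of the 5 genes were above 0 with 2 and 4 miRNAs against day 5. All 5 were against day 7. The shares of all genes above 0 under that setting were not counted.

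The chromosomal passenger complex, which corrects faulty attachments, and the genes of anaphase were mostly lower with miRNAs than on day 5. All 4 passenger genes were below 0 with 2 miRNAs against day 5, with a median of −0.67, and 3 of 4 with 4 miRNAs. Against day 7 they were 3 of 4 below 0 with 2 miRNAs (median −0.59) but 2 of 4 with 4 (median −0.07), and INCENP and BIRC5 overlapped between miRNA and control arrays. AURKB read 1131 and 1524 with miRNAs and 2447 and 1942 in the controls, −1.09 with 2 miRNAs and −0.67 with 4, and both of its probe sets were lower than on day 5. BIRC5 (survivin), which targets AURKB to centromeres, read 2996 and 2995 with miRNAs, 3873 on day 5 and 2991 on day 7 by its brightest probe set, where the day 5 control alone stood apart. In its other 3 probe sets both miRNA arrays were below both controls, the brightest of them at 1211 and 1201 against 2078 and 1748. Each of the 4 anaphase genes was below 0 in all comparisons of a miRNA array with a control, except that running-median centring put PTTG1 at 0.013 and 0.12 with 4 miRNAs against day 5 and day 7. CDC20 read 2186 and 2876 with miRNAs and 5505 and 3954 in the controls, a difference from day 5 of −1.32 and −0.93. PTTG1 (securin), which holds separase in check, read 15244 and 16608 with miRNAs against 20048 and 18565. The miRNA arrays were thus below both controls for both genes, for CDC20 past 2-fold on the 2-miRNA array against day 5 and for PTTG1 by little.

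Kinetochore genes went both ways. NDC80, NUF2 and SPC25, subunits of the NDC80 complex that grips microtubules, were above both controls on both miRNA arrays, with differences from day 5 of 0.40 to 0.95. SPC24, the remaining subunit and not among the 42 genes, was lower, at −0.42 and −1.23 from day 5. CENPE overlapped between miRNA and control arrays. CENPA, the centromere histone, and CENPF, a fibrous corona protein, were below both, CENPA by so little that running-median centring turned it to 0.10 with 4 miRNAs against day 7. CENPF read 2522 and 2634 with miRNAs and 3821 and 3053 in the controls, although its other expressed probe set differed from day 5 by 0.73 and 0.65. Of the 7 kinesins and midzone genes, KIF11, KIF23 and NUSAP1 were above both controls by their brightest probe set. The other probe sets of NUSAP1 (2872 and 3515 against 4260 and 3839) and of KIF23 (199 and 155 against 210 and 241) were below both. KIF20A was below them by 0.14 or less, and running-median centring turned its sign against day 5. KIF11, the motor that pushes the spindle poles apart, read 2457 and 2796 with miRNAs and 2008 and 1756 in the controls.

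Both cytokinesis genes were higher with miRNAs. ECT2 read 7464 and 6060 with miRNAs against 2621 and 2576, a difference from day 5 of 1.50 and 1.20. ANLN (anillin), which crosslinks actin and septins in the furrow, read 5426 and 5658 against 2438 and 3109, and its other probe set read 2742 and 2827 against 1514 and 1721. Both probe sets of ANLN kept every miRNA array above every control, whereas the other 2 probe sets of ECT2 did not; the brighter of them read 1702 and 1486 against 1582 and 1628. MKI67 and TOP2A overlapped between miRNA and control arrays by their brightest probe sets: MKI67 read 3942 and 5103 against 4573 and 4450, and TOP2A 4049 and 4876 against 5036 and 4772. The other bright TOP2A probe set read 5360 and 6276 with miRNAs against 3224 and 3265, above both controls, and the second brightest of MKI67 read 2665 and 3278 against 4821 and 4501, below both. FOXM1 read 1094 and 1674 with miRNAs against 2452 and 1771, a difference from day 5 of −1.14 and −0.54, with a single probe set.

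Just under 2-fold against day 5 were NUF2 at 0.95 and KIF23 at 0.92 with 2 miRNAs, and CDC20 at −0.93 with 4; just past it were AURKB at −1.09, FOXM1 at −1.14 and ANLN at 1.14.

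Probe sets of the same gene lay close together between arrays of like brightness and far apart across them. Among the 21 mitosis genes with more than 1 expressed probe set, the signs of all probe sets matched in 11 between the controls and in 13 between the miRNA arrays, with a median range over the probe sets of a gene of 0.29 and 0.12. Against day 5 they matched in 10 of 21 with 2 miRNAs and 8 of 21 with 4, with a median range of 0.99 and 1.0, and MAD2L1 had the widest (1.77 and 1.82). Over all 5896 expressed genes with several probe sets, that median range was 0.51, 0.36, 0.77 and 0.75 in the same 4 comparisons. Signs matched in 45.1%, 45.4%, 48.2% and 48.0% of these genes, so over all genes matches were not fewer against day 5. Of the genes past 2-fold against day 5, NEK2, MAD2L1, ECT2 and ANLN had 1 probe set past it, AURKB had 2 of 2 with 2 miRNAs, and CDC20 and FOXM1 had no other. The SD of a probe set about its gene, over 3266 pairs, was 0.49 and 0.34 within pairs of like brightness and 0.64 and 0.63 against day 5. The share of this spread that comes with brightness was not tested.

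**Figure D4:**
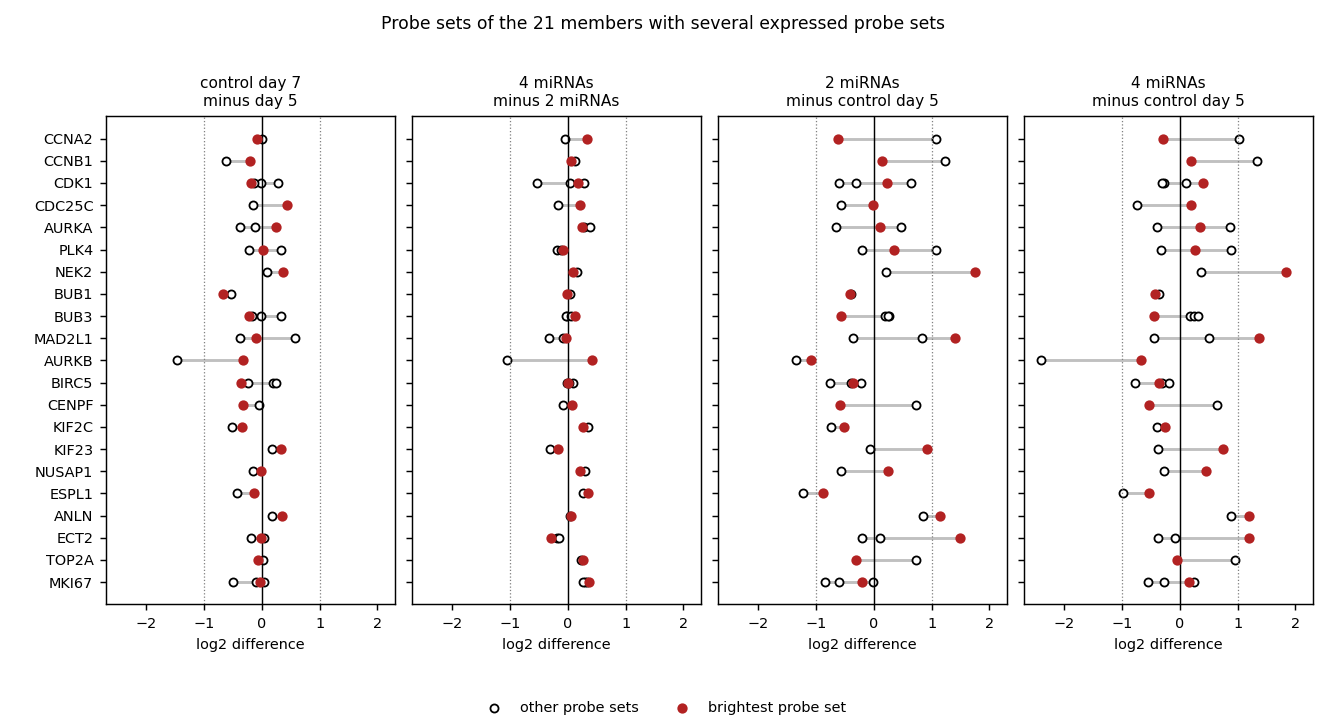
Log2 difference of every expressed probe set of the 21 mitosis genes that had several (rows), in 4 comparisons (panels); filled points are the brightest probe set, which stands for the gene, open points the others, grey lines their range and dotted lines 2-fold. Ranges are short between arrays of like brightness (median 0.29 and 0.12) and long between miRNA arrays and the day 5 control (0.99 and 1.0).

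Genes with and without the CHR letters lay closer together in the comparisons of like brightness than against day 5. The 24 genes with TTTGAA had a median of −0.10 between the controls and 0.18 between the miRNA arrays, and the 11 without it −0.22 and 0.08. Against day 5 the 24 had medians of 0.01 and 0.27 with 2 and 4 miRNAs, and the 11 had −0.39 and −0.27. These are descriptions of a split by sequence, with no test and by the brightest probe set of each gene. The 11 include BUB1, which has the variant TTCGAA, and the same split over all genes is not given here. The length of the gene in the genome also went with the difference: Spearman's rho over the 42 genes was 0.39 and 0.33 against day 5 and 0.15 and −0.20 in the comparisons of like brightness, with 0.17, 0.16, 0.05 and −0.03 over 12251 genes. All genes of a comparison share the same arrays.

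Other genes of the cycle were read from further lists. Of 69 other mitosis genes, 15 were above 0 on day 7 (median −0.19) and 43 with 4 against 2 miRNAs (median 0.06). Of all expressed genes, 49.3% and 50.8% were. None of the 69 passed 2-fold in either, where 3.35% and 1.04% of all genes were higher by that much and 2.41% and 1.33% lower. Against day 5, 27 were above 0 with 2 miRNAs (4 past 2-fold up, 6 down) and 30 with 4 (8 up, 5 down). Of all genes, 40.6% and 41.0% were above 0, 8.11% and 8.03% past 2-fold up, and 6.37% and 6.70% down. FBXO5 (EMI1), which blocks the anaphase-promoting complex, read 4084 and 4040 with miRNAs against 866 and 812, a difference from day 5 of 2.20 and 2.18, but its other probe set was at −0.73 and −0.72. CENPK, of the inner kinetochore, was at 2.11 and 1.95, MASTL (Greatwall kinase) at 1.44 and 1.48 and CKAP2, a spindle protein, at 1.11 and 1.48. TACC3, of the spindle fibre, was at −1.56 and −1.0002 and TRIP13, which disassembles the checkpoint complex, at −1.35 and −1.39. The wider list thus also held genes on both sides, as all expressed genes did. Of 15 subunits of the anaphase-promoting complex and its partners, 12 were below 0 on day 7, as were 6221 of 12264 expressed genes. With either miRNA mix against day 5, 12 were below 0, as were 7289 (2 miRNAs) and 7241 (4 miRNAs) of all genes. ANAPC7 passed 2-fold against day 5 by its brightest probe set (−1.19 and −1.30), while its other probe set was at −0.34 and −0.75.

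The medians of the S phase genes and of the cell cycle exit genes lay on opposite sides of 0 in comparisons with the day 5 control. Of all expressed genes, 49.3% were above 0 on day 7, and 40.6% and 41.0% with 2 and 4 miRNAs against day 5. Of 35 genes of S phase and replication, 30 were below 0 on day 7, with a median of −0.31. With 2 and 4 miRNAs against day 5, 28 and 30 were below it (medians −0.45 and −0.43). CDC45, a helicase subunit, was at −1.05 and −1.42, and CHAF1A, a histone chaperone, at −1.29 and −0.57, while the licensing factor CDT1 was at 1.24 and 1.46. With 4 against 2 miRNAs, 12 of the 35 were above 0 (50.8% of all genes), with a median of −0.11. Of 12 expressed CDK inhibitors and exit genes, 10 were above 0 on day 7, with a median of 0.35, and 8 and 9 with miRNAs against day 5 (0.35 and 0.40). Against day 7 the S phase medians were −0.18 and −0.19, near the −0.16 and −0.15 of all genes, and those of the exit genes were 0.06 and 0.14. CCNG2 (cyclin G2), which is high in arrested cells, read 2952 and 2924 with miRNAs, 549 on day 5 and 986 on day 7 by its brightest probe set. Its 4 expressed probe sets ranged from 0.43 to 2.36 with 2 miRNAs against day 5 and from 0.52 to 2.35 with 4. Against day 7 they ranged from −0.32 to 1.55 and from −0.34 to 1.54, so that direction depended on the probe set. RBL2 (p130), the pocket protein of DREAM, was at 1.65 and 1.77 with miRNAs and 0.87 on day 7, and TOB1, an antiproliferative protein, at 1.15, 1.34 and 0.44. RBL2 is also among the 12 DREAM and MuvB subunits, of which 5 were above 0 on day 7 (median −0.21) and 6 and 5 with miRNAs (−0.17 and −0.06). LIN9, of the MuvB core, was at 2.72 and 2.56 from a signal of 11.8 on day 5, which is close to the floor set by the added 32. Of the 9 G1 cyclins and kinases, 3 were above 0 on day 7 (median −0.33) and 3 and 4 with miRNAs against day 5. Their medians against day 5 were −0.14 and −0.04, where those of all genes were −0.16 and −0.15. Several of these genes had probe sets on both sides of 0, RBL2 from −0.47 to 1.65 with 2 miRNAs.

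**Figure D5:**
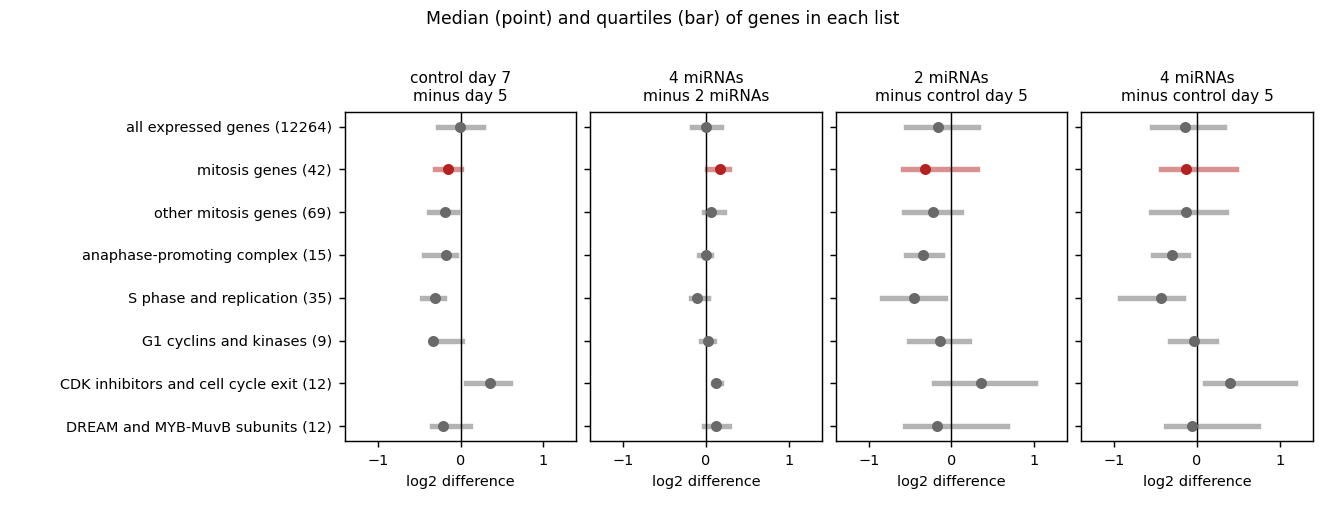
Median (point) and quartiles (bar) of the log2 difference over the genes of each list (rows, with the number of genes), in 4 comparisons (panels). On day 7 the mitosis genes (median −0.15) and S phase genes (−0.31) lie left of 0 and the exit genes (0.35) right of it, and with 4 against 2 miRNAs the mitosis genes (0.17) lie right of 0.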

How the data were processed

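The deposited table held linear intensities of 54675 probe sets on 4 arrays, which the authors made with MAS5, as the submitters' processing notes name it, with no version or scaling target known here. Probe sets were named from the platform annotation: 41097 carried 1 gene symbol, 1801 several (left out) and 11777 none, and 41043 were found by gene ID in the RefSeq gene table (GRCh38.p14). Signals were multiplied to give every array a mean of 500 after trimming 2% at each end, 32 was added, and log2 was taken, so differences of dim genes are understated. A probe set was kept if its mean reached the median of all probe sets or it reached the 75th percentile on any array, and the probe set of highest mean stood for its gene. With a single array per group there was no test; an absolute log2 difference of 1 or more (2-fold) was counted. The counting was tested on simulated data.

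Signals on each array are printed for genes past 2-fold in the comparisons of the controls, of the miRNA arrays and of each miRNA array with day 5, and always for 17 set genes; up to 4 genes past 2-fold are named from each other list. Further genes named with a value, such as BUB1, CENPE, CDC25B, CDC25C, NUF2 and KIF23, mark the ends of a range or a role and were chosen after their values were seen. The 42 genes and the lists were chosen with earlier results of these data known. Alternatives were quantile normalization, running-median centring over 501 genes, pseudocounts of 16 and 100, no filter, a filter at the 70th percentile, the median over probe sets, and only probe sets with IDs ending in _at alone. Some listed genes were not analysed here. Python 3.11.15, numpy 2.4.6, pandas 2.3.3 and scipy 1.17.1 were used.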

Additional observations from a re-analysis of the deposited data

How the results depend on the processing

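Of 144 values that summarise the 42 genes under 8 alternatives, 131 stayed within the limits set for them. With only probe sets ending in _at alone (29 genes left), 19 were above 0 with 4 against 2 miRNAs; 4 passed 2-fold with 2 miRNAs and 2 with 4 against day 5, with medians of −0.069 and 0.28; and the median with 2 miRNAs against day 7 was 0.13. With running-median centring the medians were −0.15 and 0.016 against day 5 and −0.026 with 2 miRNAs against day 7. With the median over probe sets, 1 gene passed 2-fold against day 7 with 2 miRNAs and 1 with 4. INCENP was not past 2-fold with a pseudocount of 100, nor kept by the 70th percentile filter, which left 0 genes past 2-fold between the miRNA arrays. Of the differences past 2-fold between the miRNA arrays or against day 5, 4 changed sign where another probe set was read. MAD2L1 with 4 miRNAs against day 5 was −0.00047 with the median over probe sets. ECT2 against day 5 was −0.21 with 2 miRNAs (_at alone) and −0.089 (median) and −0.37 (_at alone) with 4. Differences past 2-fold against day 7 changed sign as well. Over the settings MAD2L1 with 4 miRNAs fell as low as −0.066, and ECT2 as low as −0.021 with 2 and −0.18 with 4. The cause of these moves was not tested. Of 644 values for 21 named genes, in the comparisons other than those of a miRNA array with day 7, 621 stayed within the SD of a probe set (0.34 to 0.64). That total leans on alternatives that hardly change which probe set is read, where every value stayed. With the median over probe sets 70 stayed, 12 moved further and 2 past 2-fold changed sign. With _at alone 51 stayed, 7 moved further and 2 changed sign. Small differences could change sign and still stay within the SD. Counted by sign alone, whatever the size, 27 changed direction: 17 with the median over probe sets, 7 with _at alone and 3 with running-median centring.

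No paired analysis was possible because each group has 1 array. Depth does not apply to arrays; their number, with no second culture of any group, limits the precision, and dim genes such as INCENP and LIN9 carry the least certain differences.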
